A study of Mus musculus with 6 samples.

Results

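The 39 genes described here encode proteins that sense, signal and repair DNA breaks, together with core genes of the Fanconi anaemia pathway. They were chosen by name, as a list of break repair and Fanconi genes, with earlier results of these data known. All 39 were matched among the 27179 gene numbers of the deposited count table. RNA was measured in 6 libraries of activated CD8+ T cells from gBT-I mice, a transgenic strain (gBT-I tg, held SPF) whose T cell receptor recognises a herpes simplex virus peptide. Spleen cells of all groups were activated in culture with the gB498-505 peptide and LPS, were given IL-2 on days 2 to 5 and were harvested on day 6. The 3 control libraries had no further treatment in the labels, and for the 3 butyrate libraries butyrate was added from day 3. Butyrate is a short-chain fatty acid of gut bacteria that inhibits histone deacetylases. The comparison asks how it alters gene expression in these cells. The butyrate dose was not given in the labels. Nothing there ties the replicates to different animals or cultures, so p-values measure the spread between these libraries, which may be technical.

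A broken chromosome is sensed by the MRN complex (MRE11, RAD50 and NBS1), which recruits the kinase ATM, while single-stranded DNA is sensed by ATR with its partner ATRIP. In S and G2 phase, resected ends are repaired from the sister chromatid by homologous recombination, which needs BRCA1, BARD1, PALB2, BRCA2 and the strand exchange proteins. In all cycle phases, ends can be rejoined directly by Ku (KU70 and KU80), DNA-PKcs, XRCC4 and ligase IV. The Fanconi proteins act where crosslinks block replication: a core complex attaches ubiquitin to FANCD2 and FANCI, which then direct incision and recombination. Dividing lymphocytes depend on these routes, and T cells also use end joining when they assemble their receptors in the thymus.

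All 39 genes passed the filter on low counts, with 28 to 1861 counts in a library. Of these, 3 were higher with butyrate, 9 were lower and 27 were not called by edgeR's quasi-likelihood test (adjusted p under 0.05 over all 11740 genes tested). That is 30.8% of the genes, beside 45.9% of all genes tested. The background was 23.5% for higher and 22.5% for lower calls. The genes that fell were Bard1, Fancb, Chek2, Rbbp8, Nbn, Atr, Fancd2, Atm and Xrcc2, and those that rose were Mdc1, Xrcc6 and Exo1. The 39 genes had a median log2 fold change of -0.07, beside 0.0034 over all genes tested, but with upper quartile scaling both were above 0, at 0.0092 and 0.0855. With upper quartile scaling 5 of the 39 genes were higher and 8 lower. With the replicate number as a block, 4 were higher and 10 lower, beside 53.8% of all genes called. No member changed by as much as 2-fold: the largest fall was a log2 fold change of -0.82 and the largest rise 0.61. The sizes were small beside those of other genes, with a median absolute log2 fold change of 0.172, against 0.333 over all genes tested and 0.295 over the 9035 tested genes in the same range of mean CPM. CPM values are counts scaled to a common library total, with TMM factors. For 25 of the 27 genes not called, the 95% interval of the fold change lay within 1.5-fold in either direction. The exceptions were Lig4 and Xrcc4, with intervals of 0.03 to 0.66 and -0.91 to 0.23 on the log2 scale. They had at most 100 counts in a library, but so did Rad51b, whose interval lay within 1.5-fold. The CPM values of the groups did not overlap for 17 of the 39 genes (43.6%), beside 57.1% of all genes tested.

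**Figure D1:**
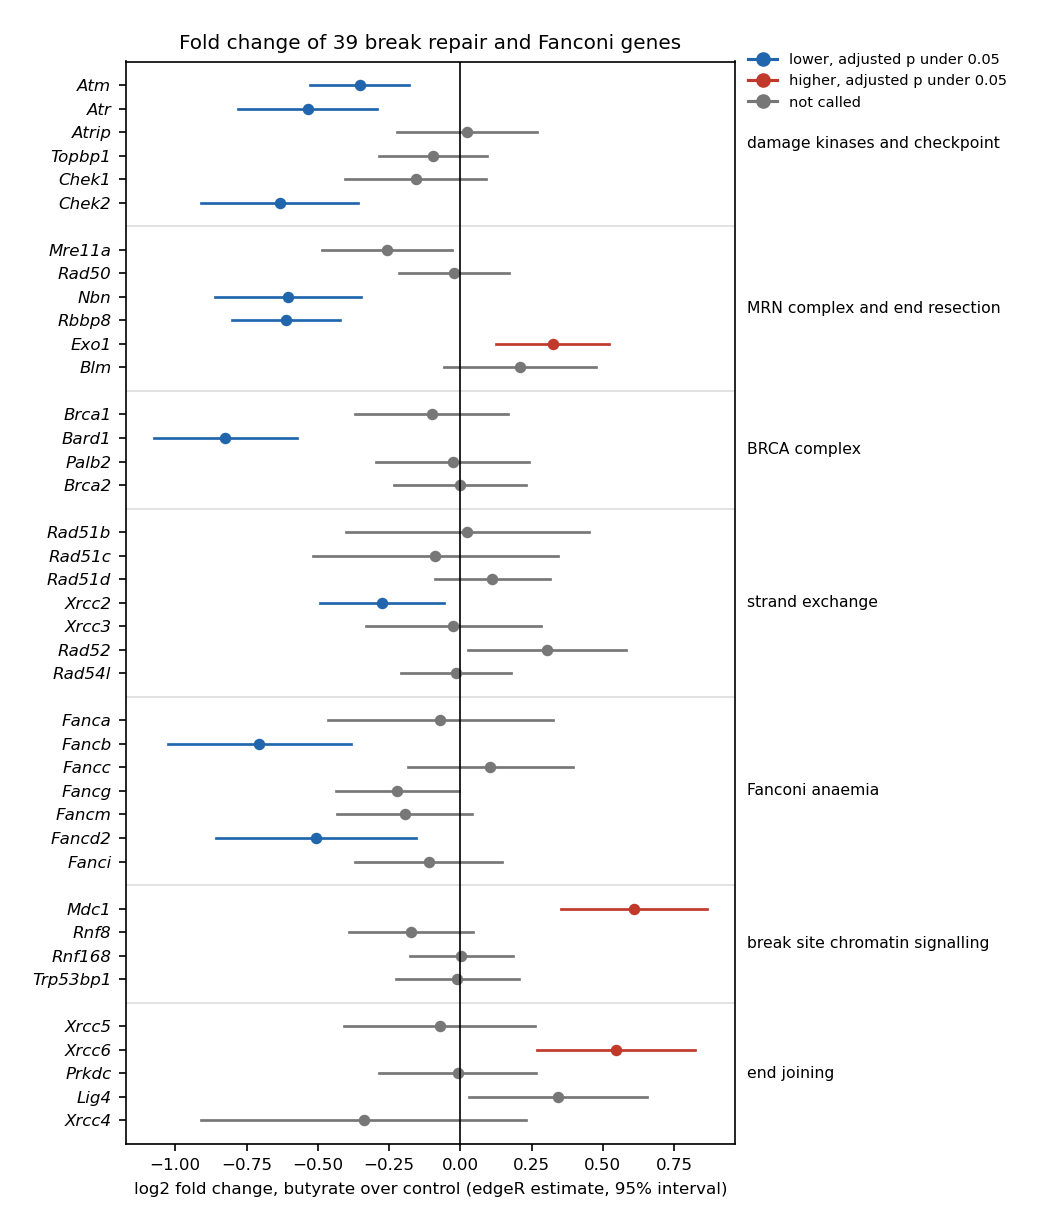
Log2 fold change of each of the 39 genes (x axis, butyrate over control, edgeR estimate with its 95% interval), grouped by role, with called genes in colour. Blue points (9 genes) lie left of 0 in 5 of the 7 roles, and red points (3 genes) are Exo1, Mdc1 and Xrcc6.

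Some promoter sequences are shown first, because genes on both sides of the comparison carry the same short motif there. RefSeq windows (build GRCm38.p6, 250 bases before to 50 after a start) were at hand for 31 of the 39 genes. E2F factors drive many replication and repair genes, and 4 forms of their site were searched on both strands: TTTCCCGC, TTTCGCGC, TTTGCCGC and TTTGGCGC. Forms on opposite strands can overlap. A match stood in the windows of 8 of 31 genes (25.8%), beside 5.04% of the 9123 tested genes with a window and 2.60% of all 27025 genes with a window. Of these 8 genes, Bard1 and Chek2 fell, Mdc1 and Xrcc6 rose, and Brca2, Topbp1, Fancg and Rad51c were not called. The 9 matches are given with 11 bases on each side, 5′ to 3′ on the strand of the match, with the match in capitals:
Bard1 (fell, chr1:71103163-71103192, minus strand, 209 bases before the start): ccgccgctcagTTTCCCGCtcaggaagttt
Chek2 (fell, chr5:110839820-110839849, minus strand, 152 bases before): cgacgtcttggTTTCCCGCggctaatcccg
Mdc1 (rose, chr17:35841471-35841500, plus strand, 16 bases before): tcttcagcctgTTTCCCGCcggtagccgca
Xrcc6 (rose, chr15:82016312-82016341, minus strand, 46 bases before): gcccactcgcaTTTCCCGCttccaccccct
Brca2 (not called, chr5:150522442-150522471, minus strand, 168 bases before): gtgtgtgtctgTTTCCCGCtgtggcctaaa
Topbp1 (not called, chr9:103305187-103305216, minus strand, 129 bases before): cgggaaccgacTTTCGCGCcaaccgagcgg
Fancg (not called, chr4:43010335-43010364, minus strand, 52 bases before): tttcttttcagTTTCCCGCggaaccgtctc
Rad51c (not called, chr11:87404941-87404970, plus strand, 5 bases before the upstream start): gaccccttgctTTTCCCGCcctcgcggggg
Rad51c (not called, chr11:87404477-87404506, minus strand, 11 bases after the downstream start): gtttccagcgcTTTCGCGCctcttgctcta
Among the genes with a match, the form TTTCCCGC was in all 4 called genes and in 3 of the 4 genes not called. The called genes Atm, Atr and Fancb had a window without a match. The called genes Rbbp8, Nbn, Exo1, Fancd2 and Xrcc2 had no window. Distances run from the RefSeq start of each window to the first base of the match. That start can lie inside the outer edges of the gene in RefSeq. The sites of Chek2, Brca2, Topbp1, Fancg and Xrcc6 lay inside these edges, as did the second Rad51c site. For Bard1 the start lay inside the outer edge, and the site lay before that edge.

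The CCAAT box (CCAAT on either strand), bound by NF-Y, stood in 58.1% of the 31 genes and in 43.4% of tested genes with a window. The CHR element of cell cycle genes (TTTGAA on either strand) stood in 9.68% of the 31 genes and in 14.2% of tested genes. Bard1, which fell most, had the CHR letters close before its E2F match. Rad51b and Rnf8, which were not called, also had the CHR letters in their windows. The exon-free stretches before the outer edges of Bard1 and Mdc1, the genes with the largest fall and the largest rise, read as follows on the strand of the gene, with all matches to the 3 motifs in capitals:
Bard1 (chr1:71103147-71103222, minus strand): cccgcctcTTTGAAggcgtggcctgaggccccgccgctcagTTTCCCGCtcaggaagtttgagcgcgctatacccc
Mdc1 (chr17:35841248-35841494, plus strand): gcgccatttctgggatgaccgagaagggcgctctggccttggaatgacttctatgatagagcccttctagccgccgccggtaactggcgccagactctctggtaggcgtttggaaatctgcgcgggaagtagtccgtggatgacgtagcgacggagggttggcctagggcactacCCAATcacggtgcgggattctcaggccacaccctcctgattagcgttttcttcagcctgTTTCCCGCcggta
Bard1 held 1 E2F and 1 CHR match and no CCAAT in its stretch, and Mdc1 held 1 E2F match and 1 CCAAT. A match is a run of letters and does not show that a factor binds there.

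Of 6 genes of damage kinases and their partners, 3 kinase genes fell with butyrate. Atm, whose product is the main kinase activated by broken ends (gene 11920, chr9:53437122-53536828), stood at 104, 102 and 105 CPM in the control libraries and at 79.7, 85.3 and 78.2 CPM with butyrate. Every butyrate library was below every control library. The log2 fold change of Atm was -0.35 (SE 0.0767, edgeR adjusted p = 0.00547). Atr, whose product answers single-stranded DNA at stalled forks (gene 245000, chr9:95857597-95953217), stood at 53.6, 50.1 and 56.9 CPM in control and 40.3, 38.0 and 32.5 CPM with butyrate. Here too the groups did not overlap, and the log2 fold change was -0.54 (SE 0.108, edgeR adjusted p = 0.00374). Chek2, the checkpoint kinase that ATM activates (gene 50883, chr5:110839800-110874140), stood at 23.0, 21.0 and 20.8 CPM in control and 14.1, 13.1 and 14.6 CPM with butyrate. It fell by 0.63 on the log2 scale (SE 0.121, edgeR adjusted p = 0.00284), the third largest fall of the 39 genes. All 3 kinase genes were called lower in each of 15 alternative analyses, with adjusted p of at most 0.0243, 0.0158 and 0.0138 for Atm, Atr and Chek2.

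The other members of this role were not called. Chek1, the kinase that ATR activates, stood at 40.7, 41.5 and 44.9 CPM in control and 41.8, 38.9 and 33.4 CPM with butyrate (log2 fold change -0.16, 95% interval -0.40 to 0.09). Atrip, the partner that ATR needs, had 25.9 ± 1.36 and 26.4 ± 1.85 CPM (SD, n = 3), with a log2 fold change of 0.02 and an interval of -0.22 to 0.27. Topbp1, an activator of ATR, had 309 ± 12.1 and 289.8 ± 19.8 CPM (SD, n = 3). It was also the most abundant of the 39 genes per exon length, at 27.6 RPKM (CPM per kilobase of exon) in control, where the median gene of the list had 7.19 RPKM and the least abundant, Fancc, 2.23. Exon lengths are those of all GENCODE transcripts of a gene together, so levels of genes with long rare transcripts, such as Atr, are understated.

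Within the MRN complex and the resection machinery, genes of partner proteins did different things. Nbn, which encodes NBS1 (gene 27354, chr4:15957587-15992589), stood at 29.0, 30.4 and 32.0 CPM in control and 22.01, 18.6 and 19.6 CPM with butyrate. Rad50 (gene 19360) stood at 94.0, 93.3 and 103 CPM in control and 102, 89.7 and 93.9 CPM with butyrate. So the groups were apart for Nbn and mixed for Rad50. Nbn fell by 0.60 on the log2 scale (SE 0.113, edgeR adjusted p = 0.00257), and the log2 fold change of Rad50 was -0.02 (interval -0.22 to 0.17). Mre11a, which encodes the nuclease, had 36.1 ± 2.44 and 30.2 ± 1.39 CPM (SD, n = 3), with a log2 fold change of -0.26. Its groups did not overlap, but it missed the threshold (edgeR adjusted p = 0.0648) and was called lower only with the replicate block (adjusted p = 0.0479, range over all alternatives 0.0479 to 0.212).

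Rbbp8 encodes CtIP, which starts resection together with MRN. It stood at 73.8, 70.3 and 78.2 CPM in control and 48.3, 47.3 and 50.1 CPM with butyrate, so the groups were far apart. The log2 fold change was -0.61 (SE 0.0838, edgeR adjusted p = 0.000548, gene 225182). Exo1, the exonuclease that extends resection (gene 26909, chr1:175880768-175911396), moved the other way. It stood at 48.2, 49.5 and 52.1 CPM in control and 64.9, 64.6 and 58.2 CPM with butyrate. All butyrate libraries were above all control libraries, and Exo1 rose by 0.33 on the log2 scale (SE 0.0875, edgeR adjusted p = 0.0149). The call of Exo1 was lost without butyrate replicate 2 (0.30, adjusted p = 0.0522, the highest of its alternatives). Blm, a helicase of long-range resection, was not called, with 68.3 ± 0.625 CPM in control and 74.7, 93.4 and 68.6 CPM with butyrate.

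Of the BRCA proteins, BARD1 is the obligate partner of BRCA1 in a ubiquitin ligase. Bard1 (gene 12021, chr1:71027535-71103141) stood at 113, 118 and 111 CPM in control and 72.7, 66.7 and 54.1 CPM with butyrate. Brca1 (gene 12189, chr11:101488761-101551955) stood at 194, 178 and 187 CPM in control and 208, 156 and 158 CPM with butyrate. The Bard1 groups were well apart, while for Brca1 the first butyrate library was above all controls and the others below. Bard1 fell by 0.82 on the log2 scale (SE 0.111, edgeR adjusted p = 0.000506), the largest change in the list, and was called lower in all 15 alternatives. Brca1 was not called (log2 fold change -0.10, SE 0.118, edgeR adjusted p = 0.52). Without butyrate replicate 1 it was -0.25 and called lower (adjusted p = 0.0437, range over alternatives 0.0437 to 0.914). Brca2, whose product acts in strand exchange, had 88.9 ± 1.24 and 88.8 ± 11.3 CPM (SD, n = 3), and Palb2, the bridge between BRCA1 and BRCA2, had 38.0 ± 3.81 and 37.4 ± 3.93 CPM. Their intervals were -0.23 to 0.23 and -0.30 to 0.24 on the log2 scale.

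**Figure D2:**
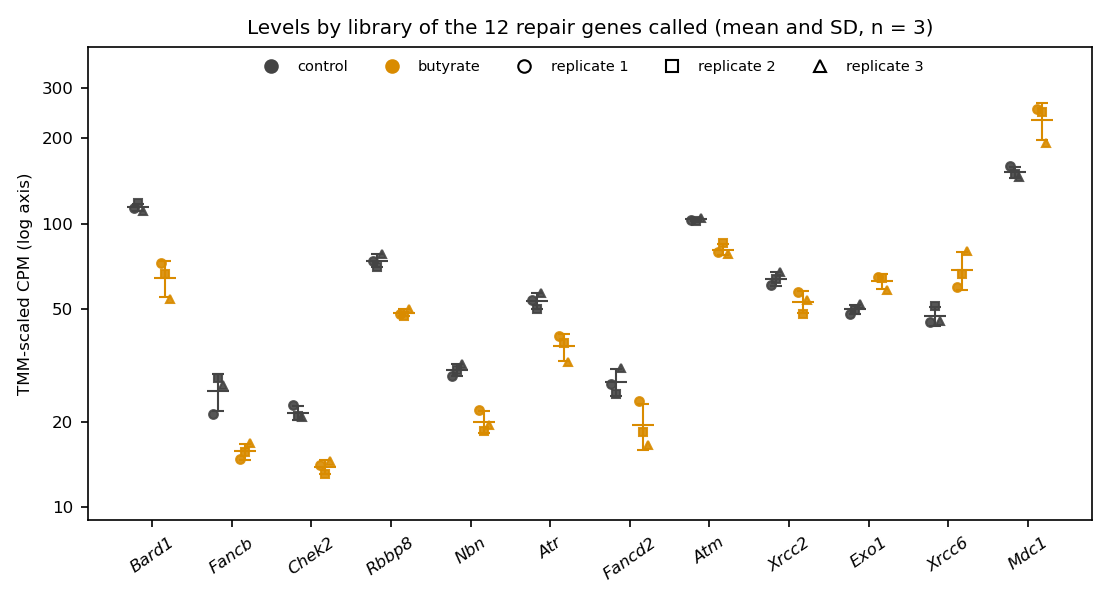
TMM-scaled CPM (log axis) of the 12 called genes in every library, ordered from the largest fall to the largest rise, with control in grey and butyrate in orange. Symbols mark the replicate number, and bars are the mean and SD of 3 libraries. For each of these genes the groups do not overlap.

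Of the 7 strand exchange genes 1 was called. Xrcc2, a strand exchange cofactor gene, stood at 60.8, 63.6 and 67.8 CPM in control and 57.3, 48.0 and 53.8 CPM with butyrate. It fell by 0.27 on the log2 scale (SE 0.0965, edgeR adjusted p = 0.0438), the smallest change among the called genes. This call was lost in 9 of 15 alternatives, with adjusted p from 0.0308 to 0.14. The losses came with upper quartile scaling (log2 fold change -0.19), total counts, the stricter filter, DESeq2, and without control replicate 1, 2 or 3 (-0.30, -0.28 and -0.23) or butyrate replicate 2 or 3 (-0.21 and -0.29). The genes Rad51b, Rad51c, Rad51d and Xrcc3 had log2 fold changes of 0.02, -0.09, 0.11 and -0.02, and none was called. Rad54l, a DNA motor protein of recombination, had 57.5 ± 1.40 and 56.8 ± 3.31 CPM (SD, n = 3). Rad52, an annealing protein, stood at 17.6, 16.5 and 18.2 CPM in control and 20.3, 20.5 and 23.8 CPM with butyrate. Its groups did not overlap, but the log2 fold change of 0.30 was not called (edgeR adjusted p = 0.0701), except with upper quartile scaling (0.39, adjusted p = 0.0301, range over alternatives 0.0301 to 0.215).

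In the Fanconi pathway, 2 of 7 genes fell. Fancb, an X-linked subunit of the catalytic part of the core complex (gene 237211, chrX:164980480-164997272), stood at 21.4, 28.6 and 27.1 CPM in control and 14.8, 15.6 and 16.8 CPM with butyrate. Its groups did not overlap, and the log2 fold change was -0.71 (SE 0.142, edgeR adjusted p = 0.0037), called lower in all 15 alternatives. Fancd2, which is monoubiquitinated by the core complex (gene 211651, chr6:113531640-113597020), stood at 27.2, 25.04 and 31.0 CPM in control and 23.7, 18.4 and 16.6 CPM with butyrate. The control and butyrate ranges lay close to each other. Fancd2 fell by 0.51 on the log2 scale (SE 0.154, edgeR adjusted p = 0.0254). Its call was lost without control replicate 3 (-0.41, adjusted p = 0.0847, the highest of its alternatives), butyrate replicate 2 (-0.46, 0.0805) or butyrate replicate 3 (-0.40, 0.079). Fanci, the partner of FANCD2, had 42.3 ± 1.13 and 39.1 ± 5.28 CPM (SD, n = 3) and was not called. The core complex genes Fanca, Fancc and Fancg had log2 fold changes of -0.07, 0.11 and -0.22. Fancm, a helicase that anchors the core complex to DNA, had -0.19. None of these was called. Fancg came nearest, with groups that did not overlap (52.7, 46.6 and 48.3 against 45.1, 41.1 and 40.5 CPM) and an adjusted p of 0.086.

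Break site signalling on chromatin held the largest rise. MDC1 binds the phosphorylated histone H2AX beside a break and gathers the other factors. Mdc1 (gene 240087, chr17:35841495-35859670) stood at 159, 150.2 and 146 CPM in control and 255, 248 and 193 CPM with butyrate. The lowest butyrate library was above the highest control library. The log2 fold change was 0.61 (SE 0.113, edgeR adjusted p = 0.00248), and it was called higher in all 15 alternatives. The factors recruited after MDC1 were not called. Rnf8, a ubiquitin ligase, had 38.3 ± 1.79 and 34.002 ± 1.85 CPM (SD, n = 3), and its groups did not overlap. Rnf168, the ligase that follows it, had 102 ± 2.37 and 103 ± 6.34 CPM, with an interval of -0.18 to 0.19 on the log2 scale. Trp53bp1, which encodes the 53BP1 protein that limits resection, had 64.2 ± 5.78 and 63.7 ± 3.02 CPM, with an interval of -0.23 to 0.20.

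Among end joining genes, 1 of 5 was called. Xrcc6, which encodes KU70 (gene 14375, chr15:81987833-82040085), stood at 45.0, 51.4 and 45.3 CPM in control and 59.9, 66.4 and 80.4 CPM with butyrate. The groups did not overlap, and the log2 fold change was 0.55 (SE 0.122, edgeR adjusted p = 0.00639), called higher in all 15 alternatives. Xrcc5, which encodes KU80, the other subunit of Ku, stood at 17.6, 24.1 and 19.1 CPM in control and 18.7, 21.0 and 18.1 CPM with butyrate, and its groups overlapped. Prkdc, the gene of DNA-PKcs, had 39.9 ± 4.85 and 39.7 ± 3.80 CPM (SD, n = 3). Lig4, which encodes ligase IV, stood at 14.04, 13.4 and 12.004 CPM in control and 17.8, 17.2 and 14.97 CPM with butyrate. Lig4 had a log2 fold change of 0.34 with an interval of 0.03 to 0.66. It was not called (edgeR adjusted p = 0.0702), except with the replicate block (adjusted p = 0.0471) and upper quartile scaling (0.0322), the lowest of a range that reached 0.212. Xrcc4, the scaffold of ligase IV, had 9.57 ± 1.96 and 7.56 ± 2.12 CPM, and its interval of -0.91 to 0.23 was the widest of the list.

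Ratios of counts within a library do not depend on how libraries are scaled. For 8 pairs of genes whose proteins work together, picked after the values above were seen and therefore not tested, the ratio was taken in each library. Bard1 reads per Brca1 read numbered 0.584, 0.662 and 0.596 in control and 0.349, 0.428 and 0.342 with butyrate. For Nbn over Rad50 the ratios were 0.308, 0.326 and 0.312 in control and 0.216, 0.207 and 0.209 with butyrate. The Nbn ratio varied little within a group, and its mean with butyrate was 0.667 of that in control. Fancd2 over Fanci went from 0.657 ± 0.0844 to 0.498 ± 0.0325 (SD, n = 3). Atrip over Atr, where 16.0% of the Atrip exon bases are shared with Trex1 on the same strand, went from 0.487 ± 0.0568 to 0.723 ± 0.127. The ratio of Xrcc6 over Xrcc5 went from 2.35 ± 0.211 to 3.60 ± 0.724. Palb2 over Brca2 stood at 0.427 ± 0.0387 and 0.424 ± 0.0514, with overlapping groups. Ratios compare reads, not molecules, since the genes differ in length.

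**Figure D3:**
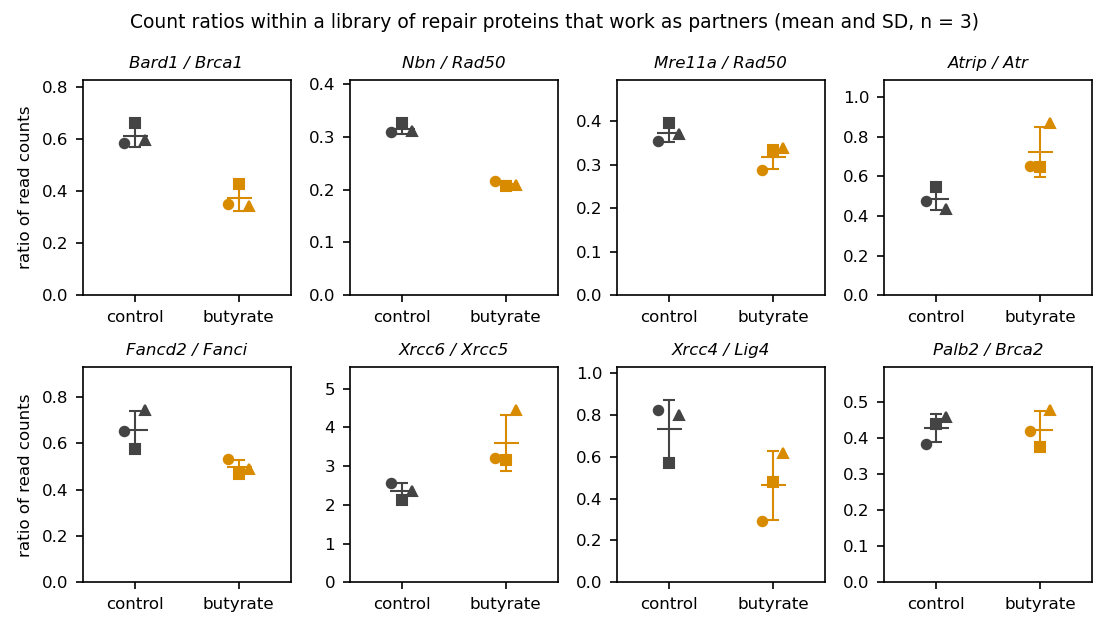
Ratio of read counts within each library for 8 pairs of repair genes (y axis from 0), in control (grey) and butyrate (orange), with circles, squares and triangles for replicates 1, 2 and 3 and bars for the mean and SD of 3 libraries. The groups are apart for all pairs except Xrcc4 over Lig4 and Palb2 over Brca2.

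Several of these genes start head to head with a neighbour. Within 1000 bases, 13 of the 31 genes with a RefSeq start had such a partner, and the partner was tested in 10 cases. Xrcc6 and Desi1, whose starts lie 149 bases apart, both rose, Desi1 by 0.28 (edgeR adjusted p = 0.0336). Their exons overlap on opposite strands over 7.69% of the Xrcc6 exon bases, and the strand setting of the counting was not stated in the labels. Atm fell, while the histone gene activator Npat, 376 bases away, had a log2 fold change of -0.23 (adjusted p = 0.107). Fancb fell, and Mospd2, 217 bases away, had -0.53 (adjusted p = 0.0563). In 3 other pairs the partner fell and the repair gene was not called. Nbr1, an autophagy receptor gene 152 bases from Brca1, fell by 0.34 (adjusted p = 0.0183), Dctn5, 95 bases from Palb2, by 0.25 (adjusted p = 0.0338), and Zfyve26, 1000 bases from Rad51b, by 0.41 (adjusted p = 0.00607). The difference between a gene and its partner was not tested.

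**Figure D4:**
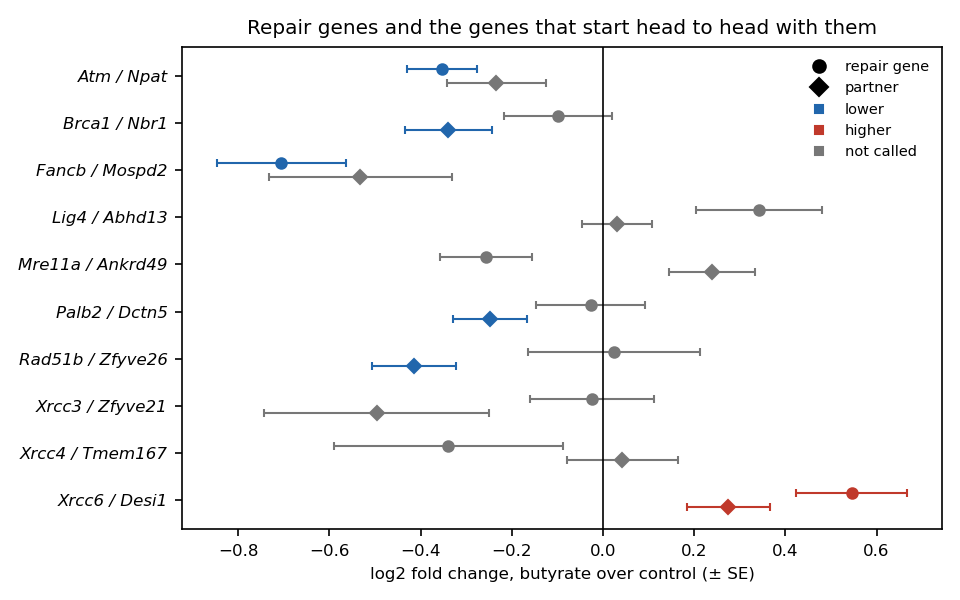
Log2 fold change (x axis, butyrate over control, with SE) of 10 repair genes (circles) and the tested genes that start head to head with them within 1000 bases (diamonds), coloured by call. Both genes are called in 1 pair, Xrcc6 and Desi1.

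Other genes of the same pathways were read from a wider list of 64, all tested, of which 5 rose and 22 fell (42.2% called, median log2 fold change -0.20). The number that rose was 3 with DESeq2 and without control replicate 1 or 3 or butyrate replicate 2. The number that fell was 15 without control replicate 3, 17 with upper quartile scaling and 27 with the replicate block. H2ax, the histone variant marked beside breaks and bound by MDC1, stood at 442 ± 20.4 and 161 ± 38.5 CPM (SD, n = 3) and fell by 1.46 on the log2 scale (edgeR adjusted p = 0.000191). Wrn, a helicase gene, fell by 0.73. Parp1, which encodes the main break-sensing ADP-ribosyltransferase, rose by a log2 fold change of 0.72 and Rpa1, a subunit of the protein that coats single-stranded DNA, by 0.37. In base excision repair 3 of 18 genes rose and 4 fell, including the glycosylase genes Ung (0.68) and Neil3 (-1.10). Nthl1 rose by 1.22 from 1.69 CPM. The number of base excision repair genes that fell was 2 with upper quartile scaling and without control replicate 1 or butyrate replicate 3. In nucleotide excision repair 3 of 16 rose and 1 fell. The number that rose was 6 with upper quartile scaling, 1 with no filter and without control replicate 2 or butyrate replicate 2, and 0 without control replicate 3. They included Gtf2h3 (0.39) and Ercc2 (0.33), while Ercc3 fell by 0.33. All of these encode TFIIH subunits. The calls of these genes were lost in some alternatives, Gtf2h3 without control replicate 1 or 3 or butyrate replicate 2 (adjusted p up to 0.0744), Ercc2 with DESeq2, with no filter or without control replicate 2 or 3 or butyrate replicate 1 or 2 (up to 0.0709), and Ercc3 with DESeq2 or without control replicate 1 or butyrate replicate 2 (up to 0.057). Of 7 mismatch repair genes, edgeR called 0, with 1 at an unadjusted p under 0.05. DESeq2 and limma voom also called 0 and upper quartile scaling called 2. Msh6, the most abundant, had 234 ± 20.7 and 263 ± 8.46 CPM.

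**Figure D5:**
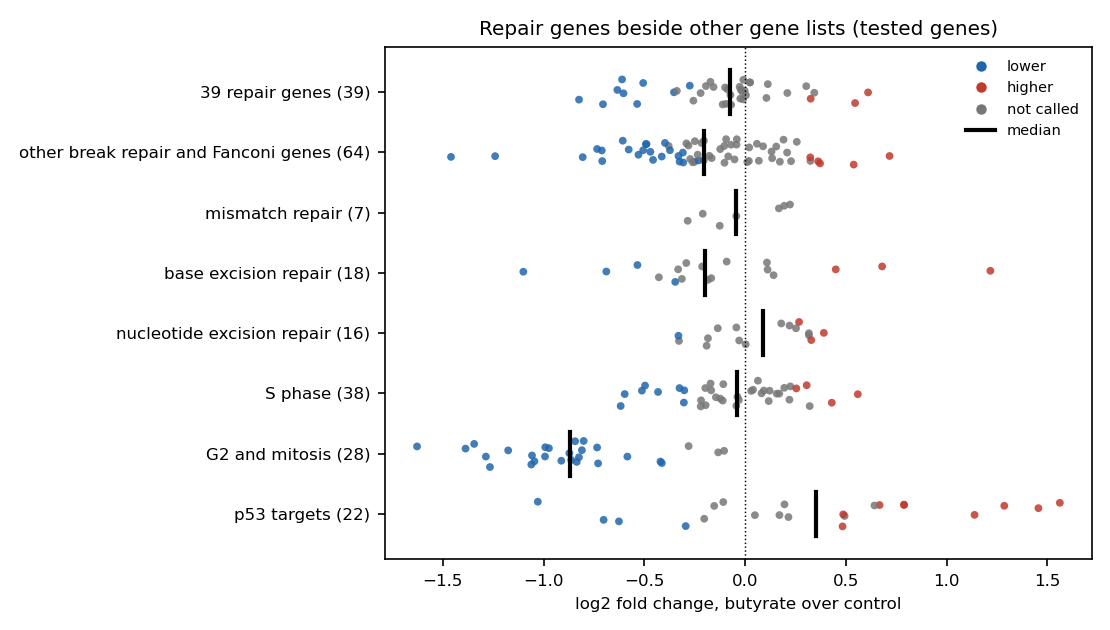
Log2 fold change (x axis, butyrate over control) of the tested genes of 8 lists, 1 point per gene, coloured by call, with the list median as a black bar. The median of the 39 repair genes is -0.07 (0.0092 with upper quartile scaling), while the G2 and mitosis genes lie to the left, with a median of -0.87.

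Homologous recombination acts in S and G2 phase, so cell cycle lists were read beside the repair genes. Of 38 S phase genes 4 rose and 8 fell (31.6% called, median log2 fold change -0.04), but with upper quartile scaling 8 rose and 3 fell, and without control replicate 3 or butyrate replicate 3 the number that fell was 4. The examples by smallest p were Mcm6 (0.56), Gins2 (0.43), Tyms (-0.60) and Tk1 (-0.43). Of 28 G2 and mitosis genes 25 fell and 0 rose (median -0.87), including Cdc20 (-1.63) and Hmmr (-1.05). The summed level of the G2 and mitosis genes was 10157 to 10713 CPM in the control libraries and 7513, 7132 and 5584 CPM in butyrate replicates 1, 2 and 3. All 39 repair genes together summed to 2319, 2238 and 2074 CPM in the same libraries, which is the same order, and to 2297 to 2318 CPM in the control libraries. The S phase genes (6285, 5931 and 5546 CPM), the wider break repair list (4388, 4255 and 4098) and base excision repair genes (926, 910 and 865) had this order too. Mismatch repair genes, nucleotide excision repair genes and p53 targets had other orders. Sums over the 7 roles of the repair genes did not share 1 order. The BRCA genes (422, 347 and 326 CPM), Fanconi genes (222, 211 and 193) and break site genes (467, 446 and 384) had that order. It differed for damage kinase and checkpoint genes (483, 512 and 463 CPM) and for MRN and resection genes (341, 343 and 322). The same held for strand exchange genes (239.9, 225 and 228 CPM) and end joining genes (144, 153 and 158). Of 22 tested p53 targets 9 rose and 4 fell (median 0.35), including the cell cycle inhibitor gene Cdkn1a (1.56) and the nuclease gene Aen (0.79), while Sesn1 and Bbc3 fell by 1.03 and 0.63. The part of a shift in cycle phase in the fold changes of the repair genes was not tested. In bulk RNA, fewer cells that express a gene and less of its RNA per cell cannot be told apart.

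The label of CD8+ T cells was read against marker genes. The summed level of 6 T cell markers was 3723 to 4276 CPM in control and 3563 to 4646 CPM with butyrate, and Cd8a had 454 ± 62.1 and 436 ± 55.1 CPM (SD, n = 3). Trac made up most of that sum, at 2063 ± 362 and 2552 ± 593 CPM. Of the 6 T cell markers 2 fell, Cd3e by 0.61 (edgeR adjusted p = 0.000816) and Lck by 0.43 (0.00605) on the log2 scale. Cd3g had a log2 fold change of -0.90 and was not called (adjusted p = 0.0575). Summed markers of other spleen cells were low but higher with butyrate for several types. Macrophage and dendritic cell markers (9 genes, 3 tested) summed to 13.9 to 53.7 CPM in control and 64.9 to 80.3 CPM with butyrate, with Itgam at 4.08 and 44.1 CPM and the defining marker Adgre1 at 0.108 and 0.119 CPM. B and plasma cell markers (6 genes, 2 tested) summed to 3.96 to 5.94 and 18.7 to 28.3 CPM, with Sdc1 at 1.45 and 17.7 CPM, while Pax5 was at 0 counts in all libraries. NK cell markers (3 genes) summed to 2.34 to 5.03 and 8.69 to 12.2 CPM, CD4 T cell markers (2 genes) to 0.185 to 1.78 and 4.25 to 5.73 CPM, granulocyte and mast cell markers (6 genes) to 4.64 to 21.6 and 5.92 to 30.5 CPM, and erythroid and platelet markers (5 genes) to 0.927 to 3.89 and 5.73 to 16.3 CPM. The part of other cells in the results was not tested.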

How the data were processed

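The authors deposited raw counts of reads per gene number for 6 libraries in 1 table. Per the submitters' processing notes, mm10 was the build and the tools were edgeR, Subread, featureCounts, Picard, TopHat and CASAVA, with no versions, roles or strand setting stated. Of 27179 gene numbers, 25275 were named from RefSeq (GRCm38.p6, the assembly behind mm10), 18 from GENCODE and 1886 stayed unnamed. Unnamed numbers held 0.961% to 1.20% of a library's counts and were kept. Totals ran from 5383380 to 6244350 counts. A count of 0 allows up to 3 counts, equal to 0.480 to 0.557 CPM, which covers counting error only.

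The main test was the quasi-likelihood F test of edgeR 4.0.16 in R 4.3.3, with TMM scaling, filterByExpr and Benjamini-Hochberg adjustment over all 11740 genes tested. The SE is the absolute log2 fold change over the square root of F. The script was tested on simulated data. Alternatives were other scalings (RLE, upper quartile, total counts), no filter, a filter of 5 CPM in 3 libraries, limma 3.58.1 voom, DESeq2 1.42.0, robust edgeR, the replicate block, and each library left out. Within each group the libraries differed beyond sampling noise, with a chi-square over its degrees of freedom of 5.43 to 10.6. Same-numbered control and butyrate libraries deviated together (correlations of 0.362, 0.197 and 0.353), so the numbers were taken as pairs in the replicate block. The main test compared the groups without pairs. This pairing comes from the data, not the labels.

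All 39 genes are named, with up to 2 called genes per direction from each wider list by smallest p, or the most abundant where none was called, except that some items are not reported here. Members, lists and partner pairs were chosen with earlier results of these data known. Exon overlap with other genes, from GENCODE M21, touched 17 of the 39 genes, by at most 18.6% of exon bases (Fancc). Strand would not separate the overlaps on the same strand, such as Atrip with Trex1 (16.0% of Atrip exon bases) and Rnf8 with Gm28043 (13.2% of Rnf8 exon bases).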

Additional observations from a re-analysis of the deposited data

How the results depend on the processing

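Of the 12 called repair genes, 9 kept their call in all 15 alternatives, and Exo1, Fancd2 and Xrcc2 did not. Leaving out 1 library gave 2 to 3 higher and 7 to 10 lower repair genes, with a median log2 fold change of -0.11 to -0.02. With the replicate block, 4 repair genes were higher and 10 lower, since Lig4 and Mre11a were added, and 2 nucleotide excision repair genes were lower instead of 1. In the wider break repair list 27 genes were lower instead of 22. The block changed no other call among the 39 repair genes and the genes named from the wider lists. Its values for head-to-head partners and cell type markers are not given here. The cause of the changes that follow was not tested. Upper quartile scaling gave 5 higher repair genes, 2 higher mismatch repair genes, 2 lower base excision repair genes, 6 higher nucleotide excision repair genes, and 8 higher and 3 lower S phase genes. DESeq2 gave 3 higher genes in the wider break repair list, 0 lower nucleotide excision repair genes and 5 lower S phase genes. With no filter, 1 nucleotide excision repair gene was higher. Leaving out 1 library gave 3 to 5 higher genes in the wider break repair list (3 without control replicate 1 or 3 or butyrate replicate 2), 2 to 4 lower base excision repair genes (2 without control replicate 1 or butyrate replicate 3), 0 to 3 higher nucleotide excision repair genes (0 without control replicate 3, 1 without control replicate 2 or butyrate replicate 2) and 0 to 1 lower (0 without control replicate 1 or butyrate replicate 2), and 4 to 7 lower S phase genes (5 without control replicate 2 or butyrate replicate 2, 4 without control replicate 3 or butyrate replicate 3).

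The sign of the log2 fold change turned for 13 repair genes, none of them called. With upper quartile scaling it was 0.06 for Rad50, 0.055 for Palb2, 0.0794 for Brca2, 0.0576 for Xrcc3, 0.0671 for Rad54l, 0.0124 for Fanca, 0.0714 for Trp53bp1, 0.0092 for Xrcc5 and 0.0731 for Prkdc. With the 5 CPM filter it was 0.0054 for Rad50, 0.0004 for Palb2, 0.0249 for Brca2, 0.0033 for Xrcc3, 0.0123 for Rad54l, 0.0169 for Trp53bp1 and 0.0184 for Prkdc. With total counts it was 0.0118 for Brca2, 0.0035 for Trp53bp1 and 0.0055 for Prkdc. Brca2 had 0.0019 with RLE scaling and with DESeq2. With no filter it was -0.014 for Atrip, -0.0144 for Rad51b and -0.0342 for Rnf168. Leaving out 1 library gave -0.0294 to 0.0712 for Atrip, -0.074 to 0.0282 for Rad50, -0.1115 to 0.038 for Palb2, -0.0885 to 0.0914 for Brca2, -0.1136 to 0.146 for Rad51b, -0.2006 to 0.1095 for Rad51c, -0.1242 to 0.0714 for Xrcc3, -0.0621 to 0.0227 for Rad54l, -0.2824 to 0.047 for Fanca, -0.0424 to 0.0454 for Rnf168, -0.0771 to 0.0529 for Trp53bp1, -0.1532 to 0.0708 for Xrcc5 and -0.0976 to 0.0733 for Prkdc. Xrcc4 and Rad51b had at most 64 and 56 counts in a library, and the part of depth in their errors was not tested.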
